A study of Mus musculus with 8 samples.

Results

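The Toll-like receptors are the sensors with which monocytes and macrophages recognise microbial products and, in some settings, the nucleic acids and proteins of dying cells. The 10 genes described here were Tlr1, Tlr2, Tlr3, Tlr4, Tlr6, Tlr7, Tlr8, Tlr9, Tlr13 and the coreceptor gene Cd14, chosen by name from the 22180 genes that the array annotation identified by a single symbol. Each of the 10 had 1 probe set. Transcript levels came from 8 Affymetrix arrays, 1 per mouse, hybridised with RNA of cells sorted from tumours as CD45+ CD11b+ Ly6Chi, the surface profile of inflammatory monocytes and macrophages. The tumours grew under the skin of 8-week-old female C57BL/6 mice for 14 days, to about 5 mm, from PDAC cell line 152. That line was derived from spontaneous tumours of KPC mice, which carry KrasLSL-G12D/+, Trp53LSL-R172H/+ and Pdx1-Cre, so the engineered alleles lie in the tumour cells and the labels give none for the host cells that were sorted. Irradiation with 20 Gy was given to 4 of the mice and sham treatment to the other 4, and tumours were taken 1 day later. Both groups thus share 1 tumour line, the flank site and the sort.

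As background, Toll-like receptors work as dimers in 2 places. Tlr1, Tlr2, Tlr4 and Tlr6 act mainly at the cell surface, where Tlr2 pairs with Tlr1 or Tlr6 to bind bacterial lipoproteins and Tlr4 binds lipopolysaccharide that Cd14 hands over. Tlr3, Tlr7, Tlr8, Tlr9 and Tlr13 act in endosomes, where they bind double-stranded RNA, single-stranded RNA, unmethylated CpG DNA and bacterial ribosomal RNA. All signal through the adaptor Myd88 except Tlr3, which uses Ticam1, and Tlr4, which uses both; the outcome is NF-kB activation and, from endosomes, type I interferon.

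None of the 10 genes passed the test between the groups, and neither did any other gene on the array. The values nearest to a difference were those of the endosomal receptor genes Tlr3, Tlr7 and Tlr9, with group means 0.42 to 0.48 higher on the log2 scale in irradiated mice. For Tlr7 and Tlr9 that came from irradiated mice 1 and 2 alone, while irradiated mice 3 and 4 lay within the sham range. Tlr2, Tlr8 and Cd14 had nearly equal group means. Tlr4, Tlr6 and Tlr13 varied more within the groups than between them, with low values in sham mouse 3.

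Of the 10 genes, 7 had a higher mean in irradiated mice, against 42.2% of all genes measured. With each array left out in turn that count ran from 4, without sham mouse 3, to 9, without sham mouse 4. The median difference of the 10 was 0.11 on the log2 scale, against -0.03 over all genes. In limma 0 of the 10 passed an adjusted p of 0.05, and of all 22180 genes 0% passed (0 genes), with 1347 at an unadjusted p under 0.05. At an unadjusted p under 0.05 there was 1 of the 10, Tlr3, against 6.07% of all genes, 2.05% in the higher and 4.03% in the lower direction. In none of the 10 did the 2 groups separate without overlap, which they did for 3.68% of all genes, 1.12% higher and 2.56% lower in irradiated mice. With 10 genes, 1 at an unadjusted p under 0.05 is near that background and is no result about the members.

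**Figure D1:**
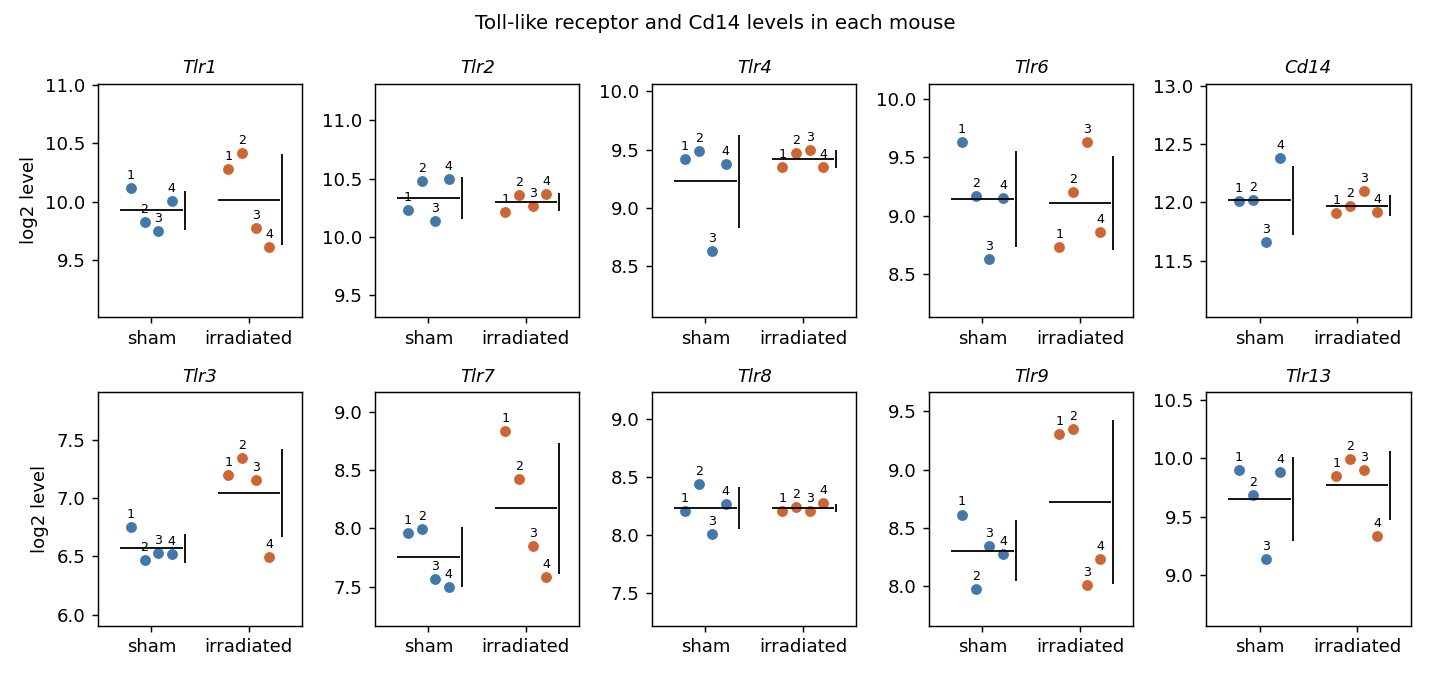
Log2 level (vertical axis, 2 units high in every panel) of the 10 genes in 4 sham mice (blue) and 4 irradiated mice (orange). Small digits are mouse numbers, horizontal lines are group means and vertical lines span 1 SD on each side. Tlr9 and Tlr7 are high in irradiated mice 1 and 2, and Tlr4 and Tlr13 are low in sham mouse 3.

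Tlr3 encodes the receptor for double-stranded RNA. The sham arrays, in mouse order, gave log2 levels of 6.75, 6.47, 6.53 and 6.52, and the irradiated arrays gave 7.19, 7.34, 7.15 and 6.49. Irradiated mice 1 to 3 thus lay above every sham mouse, and irradiated mouse 4 lay within the sham range. The means were 6.57 ± 0.12 and 7.04 ± 0.38 (SD, n = 4 each), a difference of 0.48 ± 0.17 (SE), or 1.39-fold (95% interval 1.07 to 1.82). The unadjusted p was 0.0202 and the p adjusted over all genes 0.819 in limma. Without irradiated mouse 1 or 2 the unadjusted p in limma was 0.053 and 0.0623, with differences of 0.43 and 0.38. It was 0.111 with sham mice 2 and 3 left out together and 0.052 with the mean of T and NK cell markers as a covariate, with differences of 0.41 and 0.39. Without irradiated mouse 4, the lowest of its group, the difference was 0.66, with an unadjusted p of 0.000276 and an adjusted p of 0.622 in limma.

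Tlr7 encodes a receptor for single-stranded RNA. From the first to the fourth mouse the sham levels were 7.96, 7.99, 7.57 and 7.50 and the irradiated levels 8.84, 8.42, 7.85 and 7.58. Irradiated mice 1 and 2 lay above every sham mouse and the other two lay among them. The difference was 0.42 ± 0.25 (SE; 95% interval -0.14 to 0.98; limma adjusted p = 0.837). It was 0.20 without irradiated mouse 1 and 0.61 without irradiated mouse 4.

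Tlr9 encodes the receptor for unmethylated CpG DNA and had the widest range of the 10 over the 8 arrays, 1.37. Sham levels were 8.62, 7.98, 8.34 and 8.28 in mouse order, and irradiated levels 9.30, 9.35, 8.01 and 8.23. The first 2 irradiated mice stood apart from the other 6 arrays, and irradiated mouse 3 was close to the lowest sham mouse. The difference of 0.42 ± 0.30 (SE; 95% interval -0.25 to 1.09) had an adjusted p of 0.857 in limma. Without irradiated mouse 1 or 2 it was 0.23 and 0.21, and without irradiated mouse 3 it was 0.66.

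Of the remaining endosomal receptors, Tlr8, next to Tlr7 on chromosome X with no coding gene between them, had one of the narrowest spreads. It stood between 8.01 and 8.44 in sham mice and between 8.21 and 8.27 in irradiated mice. The difference was 0.00 ± 0.11 (SE; 95% interval -0.24 to 0.24), so the interval bounds a difference in either direction at 0.24. The level of Tlr13, whose product binds bacterial ribosomal RNA, was 9.90, 9.68, 9.14 and 9.88 on the sham arrays, in mouse order, and 9.85, 9.99, 9.90 and 9.34 on the irradiated ones. It was low in sham mouse 3 and irradiated mouse 4 and similar on the other 6 arrays. The difference was 0.12 ± 0.20 (SE) and turned to -0.05 without sham mouse 3.

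Among the genes of the cell surface receptors, for Tlr1 the sham arrays gave 10.12, 9.83, 9.75 and 10.01 in mouse order and the irradiated arrays 10.28, 10.42, 9.77 and 9.61. Irradiated mice 1 and 2 were again the highest arrays, and irradiated mouse 4 the lowest, which left a difference of 0.09 ± 0.18 (SE; 95% interval -0.31 to 0.50), or -0.04 without irradiated mouse 2. Tlr2, the shared partner of Tlr1 and Tlr6, ranged from 10.13 to 10.50 in sham and from 10.21 to 10.37 in irradiated mice. Its difference was -0.03 ± 0.11 (SE; 95% interval -0.28 to 0.22), and it was 0.01 and 0.02 without sham mouse 2 and sham mouse 4.

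Tlr6 lies beside Tlr1 on chromosome 5 with no coding gene between them, but its values were spread differently. Sham levels were 9.63, 9.17, 8.63 and 9.15 in mouse order, and irradiated levels 8.73, 9.21, 9.63 and 8.86. Sham mouse 1 and irradiated mouse 3 were the highest, and each group covered nearly the whole range. The difference was -0.04 ± 0.24 (SE; 95% interval -0.56 to 0.49). It was 0.12, 0.09 and 0.04 without sham mouse 1, irradiated mouse 1 and irradiated mouse 4. The probe sequences of these related genes were not used here, so the part that shared sequence plays in their signals was not tested.

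Tlr4 encodes the lipopolysaccharide receptor. Its sham levels were 9.42, 9.49, 8.64 and 9.38 in mouse order, and its irradiated levels 9.35, 9.47, 9.50 and 9.36. Sham mouse 3 lay well below the other 7 arrays, which shared a narrow band. The means were 9.23 ± 0.40 and 9.42 ± 0.08 (SD, n = 4 each), a difference of 0.19 ± 0.18 (SE), or -0.01 without sham mouse 3. Cd14, which encodes the coreceptor that passes lipopolysaccharide to Tlr4, read 12.01, 12.02, 11.65 and 12.38 on the sham arrays, in mouse order, and 11.90 to 12.09 on the irradiated ones. The sham mice held both the lowest and the highest value. The difference was -0.05 ± 0.14 (SE; 95% interval -0.37 to 0.28), or 0.07 without sham mouse 4.

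**Figure D2:**
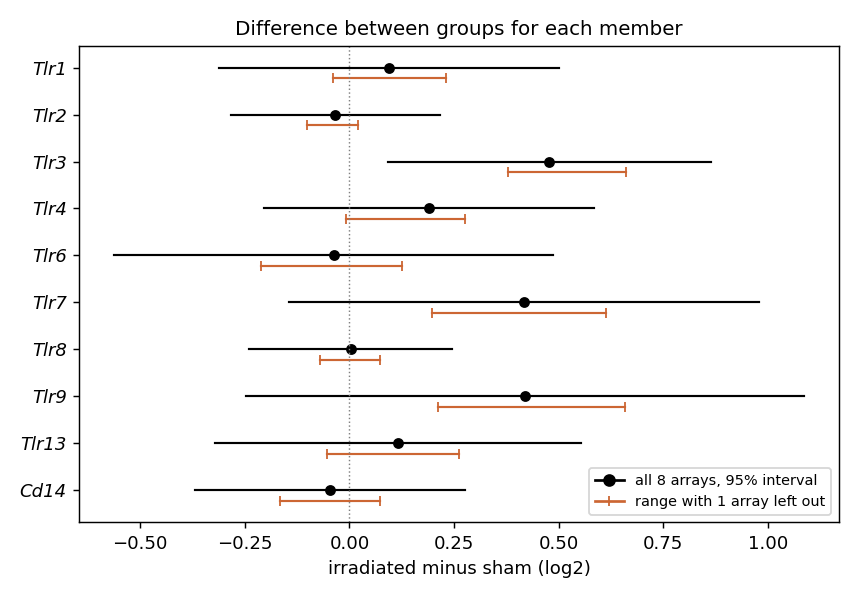
Difference in mean log2 level, irradiated minus sham (horizontal axis), for each of the 10 genes. Black points and lines are the value from all 8 arrays and its 95% interval; orange lines span the values with 1 array left out. Only the interval of Tlr3 lies above 0, and 7 of the 10 orange lines cross 0.

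Sham mouse 3 held the lowest value of 6 of the 10 genes, Tlr2, Tlr4, Tlr6, Tlr8, Tlr13 and Cd14, and irradiated mouse 2 the highest value of 4. The same array of sham mouse 3 had the lowest mean of 19 measured macrophage maturation markers, 8.997; other sham mice ranged from 9.24 to 9.76 and irradiated mice from 9.15 to 9.82. It also had the highest mean of 26 measured T and NK cell markers, 7.67, against 5.58 to 7.42 and 5.46 to 6.59. The mean of the 16 neutrophil markers was 8.30 on that array, where other sham mice had 7.01 to 7.20 and irradiated mice 6.21 to 7.41. In sorted bulk RNA, fewer cells of a type and less RNA per cell cannot be told apart, and the part of these markers in the low values was not tested. With the T and NK cell mean as a covariate, Tlr4 differed by 0.07, Tlr6 by -0.27, Tlr13 by -0.06 and Cd14 by -0.15. With the macrophage maturation mean as a covariate, the same 4 genes differed by 0.11, -0.16, -0.01 and -0.12. These compare with 0.19, -0.04, 0.12 and -0.05 without a covariate, and the adjusted p in limma ranged from 0.777 to 0.994 for them with either covariate. Sham mouse 2 had a T and NK cell mean of 7.42, a neutrophil mean of 7.17, a macrophage maturation mean of 9.24 and a Tlr4 level of 9.49.

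**Figure D3:**
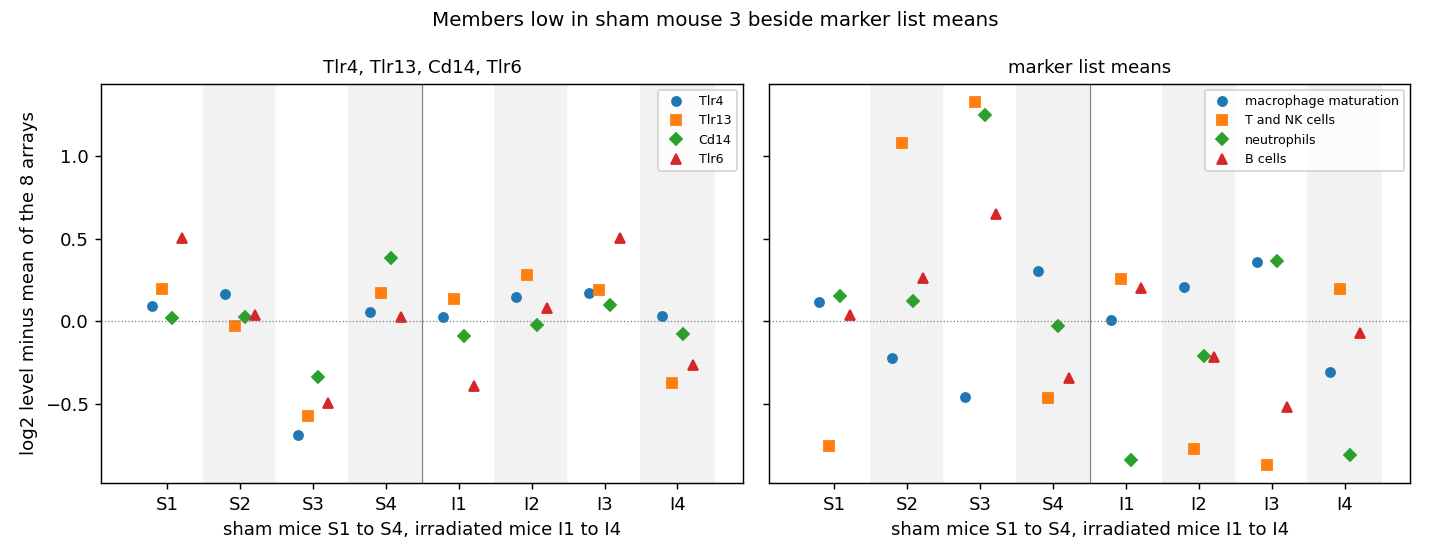
Log2 levels minus the mean of the 8 arrays (vertical axis) in sham mice S1 to S4 and irradiated mice I1 to I4. The left panel shows 4 members and the right panel the means of 4 marker lists; in S3 the 4 members are low, the macrophage list is lowest and the T and NK, neutrophil and B cell lists are highest.

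When each gene was centred on its mean over the 8 arrays, the 5 endosomal members averaged 0.43 and 0.42 in irradiated mice 1 and 2 and -0.02 and -0.26 in irradiated mice 3 and 4. On the sham arrays, in mouse order, they averaged 0.04, -0.13, -0.33 and -0.16. The 5 cell surface members, Cd14 included, averaged between -0.12 and 0.14 in irradiated mice and -0.39 in sham mouse 3. Neither average holds for every gene. Endosomal Tlr8 read 8.21 and 8.24 in irradiated mice 1 and 2, within its sham range of 8.01 to 8.44. The surface receptor gene Tlr1 was highest in those mice, at 10.28 and 10.42. The list of interferon-response genes, of which 17 were measured, averaged 9.05 and 8.72 on the first 2 irradiated arrays and 7.89 and 7.76 on the other two, with a sham range of 7.49 to 7.95. Of its 17 genes 4 had an unadjusted p under 0.05 in limma, all higher in irradiated mice, against 2.05% of all genes in that direction, and 0 passed after adjustment. Mx1, an antiviral GTPase gene, had the smallest p, with a difference of 1.32 ± 0.42 (SE) and an adjusted p of 0.819 in limma, and Cmpk2, a nucleotide kinase gene, differed by 0.63 ± 0.26. Ifih1, which encodes the RNA sensor MDA5, was the 1 of the 17 whose groups did not overlap, against 1.12% of all genes in that direction, at 8.47 to 8.64 in sham mice and, in mouse order, 9.76, 9.57, 8.67 and 8.79 after irradiation. The part of interferon signalling in the Tlr7 and Tlr9 values was not tested.

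For the 3 members with the widest range, the genes of most similar pattern were sought among the 12311 other genes at or above the median level, by the root mean square distance between centred log2 values over the 8 arrays. The nearest to Tlr9 were Ifit3, an antiviral effector gene, at a distance of 0.16, Ddx58, which encodes the cytosolic RNA sensor RIG-I, at 0.16, and Rnf213, a large ubiquitin ligase gene, at 0.20. Ifit3 reached 8.58 and 8.21 in irradiated mice 1 and 2, with a range of 6.97 to 7.50 elsewhere. The nearest to Tlr7 were Rtp4, a receptor-transporting protein gene, at 0.13, the ubiquitin ligase gene Herc6 at 0.16 and the torsin gene Tor3a at 0.16. Rtp4 reached 10.55 and 10.16 there, with 9.01 to 9.63 elsewhere. Tlr6 had other neighbours. They were Tbc1d15, a gene of a Rab GTPase regulator, at 0.09, the myeloid inhibitory receptor gene Cd300lf at 0.11 and the chemokine receptor gene Ccr1 at 0.12. Tbc1d15 reached 9.25 in sham mouse 1 and 9.36 in irradiated mouse 3, with 8.42 to 8.80 elsewhere. These genes were picked by likeness, so the distances are descriptions.

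**Figure D4:**
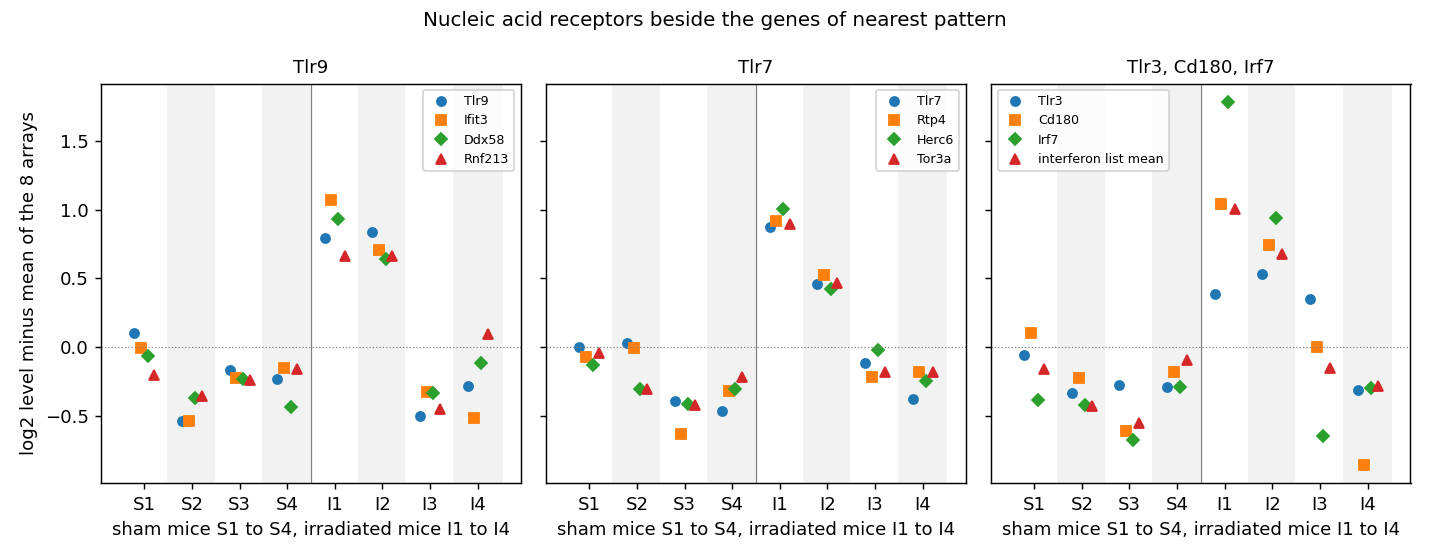
Log2 levels minus the mean of the 8 arrays (vertical axis) in sham mice S1 to S4 and irradiated mice I1 to I4. The first 2 panels show Tlr9 and Tlr7 with the 3 genes nearest to each, chosen for likeness; the third shows Tlr3, Cd180, Irf7 and the mean of the interferon-response list. Tlr9 and Tlr7 are high in I1 and I2 only, whereas Tlr3 is also high in I3.

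Cells that express much Tlr7 and Tlr9 in mice include plasmacytoid dendritic cells and B cells. The levels of Siglech, a plasmacytoid dendritic cell marker, were 4.43 and 4.45 in irradiated mice 1 and 2, below all 4 sham mice (4.69 to 6.47), and 4.64 and 5.40 in the other two. The mean of 13 measured dendritic cell markers was 6.58 and 6.59 in that pair, where sham mice had 6.54 to 7.13. The mean of 11 measured B cell markers was 5.94 and 5.52 there, within the sham range of 5.40 to 6.39, and the B cell receptor gene Cd79a stood at 5.71 and 5.34 against 5.00 to 6.85 in sham mice. Bst2, which plasmacytoid dendritic cells also express and which interferon induces, went the other way, at 10.92 and 10.34 in that pair against 9.45 to 10.19 in sham mice. Tcf4, a transcription factor gene of plasmacytoid dendritic cells, stood at 7.93 and 7.84, within the sham range of 7.70 to 7.95. Of the whole dendritic cell list, Ccr7 and Ly6d had the smallest p, with differences of -1.01 ± 0.31 (SE) and -1.15 ± 0.50. Of the B cell list these were Blk at -0.32 ± 0.11 and Bank1 at -0.54 ± 0.27. Siglech, Bst2, Tcf4, Cd79a, Ms4a1, Ighm and Cdh5 were named after their values were seen. The endothelial gene Kdr was high in the same pair, at 6.91 and 7.02, against 4.03 to 5.15 on the other 6 arrays. Another endothelial gene, Cdh5, stood at 5.72 and 5.09 in that pair, within the sham range of 4.61 to 6.45. The part of these cells in the values was not tested.

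To show the sequence in front of members that were high in the same mice as the interferon list, the 250 bases before a RefSeq transcript start (GRCm38.p6) were searched for 7 of the members, in 9 windows. The motif was AANNGAAA, the core that interferon regulatory factors bind, taken on either strand. Of 32841 such windows in the RefSeq table, 21.3% held it. So did 4 of the 9 member windows, those of Tlr2, Tlr3, and 1 each of Tlr1 and Tlr6. No window was available for Tlr4 and Tlr7, and Cd14 was left out of the search. The 4 of 9 is therefore not a share of all members, and it says nothing about Tlr7. Shown are Tlr3, high in irradiated mice 1, 2 and 3, Tlr9, high in irradiated mice 1 and 2, and Tlr6, not high in irradiated mice 1 and 2. Tlr1, also highest in irradiated mice 1 and 2, is not shown, and the choice is no test of the motif. Capitals mark the matches.
Tlr3 (chr8:45410381-45410630, minus strand): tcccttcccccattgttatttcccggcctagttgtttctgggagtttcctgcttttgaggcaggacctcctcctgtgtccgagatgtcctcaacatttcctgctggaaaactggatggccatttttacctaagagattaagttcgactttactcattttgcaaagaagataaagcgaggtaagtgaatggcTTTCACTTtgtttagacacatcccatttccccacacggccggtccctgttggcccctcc
Tlr9 (chr9:106222348-106222597, plus strand): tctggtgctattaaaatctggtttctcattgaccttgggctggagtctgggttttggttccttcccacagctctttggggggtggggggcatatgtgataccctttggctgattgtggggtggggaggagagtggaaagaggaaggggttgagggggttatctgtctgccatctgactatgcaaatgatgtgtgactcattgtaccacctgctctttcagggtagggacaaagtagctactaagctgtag
Tlr6 (chr5:64959167-64959416, minus strand): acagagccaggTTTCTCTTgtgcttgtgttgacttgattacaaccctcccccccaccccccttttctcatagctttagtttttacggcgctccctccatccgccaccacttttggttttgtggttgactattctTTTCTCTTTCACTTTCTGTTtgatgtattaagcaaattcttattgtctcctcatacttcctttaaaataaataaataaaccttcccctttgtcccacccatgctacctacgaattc
The Tlr3 window held 1 match, which begins 59 bases before the start and is on the opposite strand. All 250 of its bases lie inside the longer span that RefSeq annotates for the gene, as do those of the Tlr6 window, and whether they are exonic was not analysed here. In the Tlr9 window these letters were not found. The Tlr6 window held 4 matches, 3 of which overlap one another, and its transcript level in irradiated mice 1 and 2 was 8.73 and 9.21. A match is only a run of letters, and its use in these cells was not measured.

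The 3 further mouse Toll-like receptor genes on the array also had overlapping groups. Tlr5, the flagellin receptor gene, stood between 7.56 and 7.94 in sham and between 7.56 and 7.96 in irradiated mice. Tlr11, a gene for a receptor of protozoan profilin, differed by 0.28 ± 0.20 (SE), and its partner Tlr12 by -0.22 ± 0.34. Irradiated mouse 3 had the highest Tlr12 level, 6.87, with 5.10 to 6.24 elsewhere.

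Accessory proteins carry the receptors to their place or help them bind. Of 16 measured genes, 10 had a higher and 6 a lower mean in irradiated mice, where 42.2% of all genes had a higher mean. The median difference was 0.01, and 0 of the 16 had an unadjusted p under 0.05 in limma, against 6.07% of all genes. Cd180, which encodes a Toll-like receptor homologue without a signalling domain, had the smallest p of them. Its sham levels were 8.46, 8.13, 7.74 and 8.17 in mouse order, and its irradiated levels 9.40, 9.10, 8.36 and 7.49. Its order among irradiated mice was that of Tlr7, and the difference of 0.46 ± 0.36 (SE) had an adjusted p of 0.871 in limma. Ly86, the gene of its partner MD-1, stood between 10.44 and 10.84 in sham and between 10.15 and 10.94 in irradiated mice.

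The chaperone gene Unc93b1, which delivers the endosomal receptors, stood between 9.84 and 10.13 in sham and between 9.82 and 10.01 in irradiated mice, a difference of -0.05 ± 0.10 (SE). Slc15a4, an endolysosomal transporter gene needed for Tlr7 and Tlr9 signalling and named here after its values were seen, read 8.26, 8.24, 7.81 and 7.25 on the irradiated arrays, in mouse order, with a sham range of 7.64 to 8.00. The general receptor chaperone gene Hsp90b1 stood between 11.84 and 12.04 on all 8 arrays, and that of its helper Cnpy3 between 6.73 and 7.62. Ly96, which encodes MD-2, the part of the Tlr4 complex that binds lipopolysaccharide, ranged from 8.13 to 8.48 in sham and from 7.97 to 8.58 in irradiated mice. Lbp, the gene of the serum protein that brings lipopolysaccharide to Cd14, read 6.66 in irradiated mouse 1, where the other 3 irradiated mice had 6.21 to 6.23. Cd36, a scavenger receptor gene that assists Tlr2 and Tlr6, ranged from 6.41 to 8.33 over the 8 arrays, with a difference of -0.19 ± 0.37 (SE).

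Among 7 measured adaptor genes, 5 had a higher and 2 a lower mean, where 42.2% of all genes had a higher mean. None had an unadjusted p under 0.05 in limma, against 6.07% of all genes, and the median difference was 0.02. With so few genes, 0 is near that share. Myd88, the common adaptor, read 8.98, 9.14, 8.81 and 9.04 on the sham arrays, in mouse order, and 9.28, 8.85, 8.71 and 8.76 on the irradiated ones. Irradiated mouse 1 was the highest array and irradiated mouse 3 the lowest, and the difference was -0.09 ± 0.14 (SE). Tirap, which bridges Myd88 to the surface receptors, differed by -0.09 ± 0.15. Ticam1, the adaptor gene of Tlr3, and Ticam2, which links it to Tlr4, each differed by 0.02 ± 0.14.

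Further down the pathway, 16 kinase and ubiquitin ligase genes were measured, 8 with a higher and 8 with a lower mean. The median difference was 0.00, and 0 of the 16 had an unadjusted p under 0.05 in limma, against 6.07% of all genes. The 3 with the smallest p were Ikbke, a kinase gene of interferon induction, at 0.25 ± 0.14 (SE), the kinase gene Map3k8 at 0.43 ± 0.25 and Tab1, a partner gene of the kinase TAK1, at 0.32 ± 0.20. Of 7 measured transcription factor genes, 4 had a higher mean and 0 an unadjusted p under 0.05 in limma, against 42.2% and 6.07% of all genes. Irf7, which drives interferon transcription after Tlr7 and Tlr9 engagement, read 8.21, 8.17, 7.92 and 8.31 on the sham arrays, in mouse order, and 10.38, 9.54, 7.95 and 8.30 on the irradiated ones. The same pair of irradiated mice was high as for Tlr9, and the difference of 0.89 ± 0.44 (SE) had an adjusted p of 0.822 in limma. Rela, an NF-kB subunit gene, differed by -0.12 ± 0.13 and Jun, a gene of the AP-1 factor, by 0.06 ± 0.13.

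The list of negative regulators had 14 measured genes, 8 with a higher and 6 with a lower mean, where 42.2% of all genes had a higher mean. The median difference was 0.02, and 0 of the 14 had an unadjusted p under 0.05 in limma, against 6.07% of all genes. Usp18, which removes ISG15 and restrains interferon signalling and is on the interferon-response list too, reached 9.12 and 8.55 in irradiated mice 1 and 2, with 7.12 to 7.93 elsewhere. Tollip, which encodes a binding protein of the receptors' kinases, differed by 0.23 ± 0.13 (SE), with irradiated mice 3 and 4 highest at 7.30 and 7.17. Nfkbia, the gene of the NF-kB inhibitor, differed by 0.26 ± 0.15.

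The labelled identity of the cells was checked on the genes of the sorted antigens. The CD45 gene Ptprc ranged from 11.50 to 11.71 over the 8 arrays and the CD11b gene Itgam from 10.68 to 11.28. Ly6c2, of the Ly6C antigen, ranged from 10.77 in irradiated mouse 3 to 12.45 in irradiated mouse 1. T and NK cell markers had a lower mean in irradiated mice for 24 of the 26 measured genes, where 57.8% of all genes had a lower mean, and a median difference of -0.62. Their mean was 5.58, 7.42, 7.67 and 5.87 on the sham arrays, in mouse order, and 6.59, 5.56, 5.46 and 6.53 on the irradiated ones. Only sham mice 2 and 3 thus lay above the irradiated mice, and sham mice 1 and 4 lay within the irradiated range. The count of 24 is therefore no group effect shared by all sham mice. An unadjusted p under 0.05 in limma was reached by 2 of the 26, against 4.03% of all genes in the lower direction. These were the cytokine receptor gene Il7r at -0.87 ± 0.26 (SE) and the NK receptor gene Klrd1 at -0.81 ± 0.27. Il7r was the 1 of the 26 whose groups did not overlap, against 2.56% of all genes in that direction. It did not follow its list: it was lowest in irradiated mouse 1, at 7.64, where the list mean was the highest of the irradiated mice. Neutrophil markers were lower for 13 of 16, with a median of -0.71. The smallest p among them were those of the granule genes Prtn3 at -0.44 ± 0.15 and Camp at -2.77 ± 1.35, the latter at 8.02 and 10.10 in sham mice 2 and 3 and 3.08 to 3.69 elsewhere. Of the macrophage maturation list, the chemokine receptor gene Cx3cr1 at -0.40 ± 0.17 and Siglec1, a macrophage adhesion receptor gene, at 0.55 ± 0.25 had the smallest p, and of the tumour and stromal list Kdr at 0.72 ± 0.61 and the epithelial gene Epcam at -0.23 ± 0.22. Itgam, at 0.18 ± 0.12, and the chemokine receptor gene Ccr2, at -0.12 ± 0.11, had the smallest p of the Ly6C-high monocyte list. The array medians lay between 4.68 and 4.73.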

How the data were processed

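The authors made the deposited log2 values with RMA and Partek, per the submitters' processing notes, which name no version or setting; the log2 scale was inferred from the values. Per the labels' protocols, 25 ng of RNA was amplified by an isothermal linear method before hybridisation. Of 34365 rows, 23521 had 1 gene symbol in the platform annotation, 1814 several and 9030 none; the row with the highest mean was kept for the 1082 symbols with several, leaving 22180 genes. RefSeq's table of GRCm38.p6 held 21994 of their Entrez identifiers.

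The test was limma's moderated test (version 3.58.1, R 4.3.3; two-sided; Benjamini-Hochberg over all genes; threshold 0.05), which was tested on simulated data. SDs are over 4 mice, and SEs and 95% intervals come from the fit. The number of arrays limits the precision. RMA shares values across arrays, and hybridisation differs between probes, so levels of different genes were not ranked. No filter on dim genes was applied.

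The members, the lists and the tests were chosen with earlier results of these data known. Named were all members, the other Toll-like receptors, 8 accessory and 4 adaptor genes, the 3 genes of smallest p in each further pathway list, 2 in each marker list, sort markers, and 3 nearest genes for the 3 members of widest range; genes outside this rule are identified where they are named. Alternatives were quantile scaling, array medians, no dim genes, mean of rows, all rows, a trended robust prior, array weights, a replicate block, arrays left out and marker means as covariates. Member counts with arrays left out were added after seeing the data. Plots used matplotlib 3.10.9.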

Additional observations from a re-analysis of the deposited data

Results flagged for a closer look

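In 124 groups of 4 arrays (62 genes, those that the naming rule gave, in both groups), 5 held a lowest or highest array far from the other 3 by Dixon's criterion; chance flags about 5% of such groups. For Tlr4, sham mouse 3 had 8.64 and the other sham arrays 9.38 to 9.49. For Lbp, irradiated mouse 1 had 6.66 and the other irradiated arrays 6.21 to 6.23. For Jun, sham mouse 1 had 10.67 and the other sham arrays 10.51 to 10.53. For Ccr2, the monocyte chemokine receptor gene, irradiated mouse 3 had 11.20 and the other irradiated arrays 11.52 to 11.56. For Bank1, a B cell scaffold gene, sham mouse 3 had 7.09 and the other sham arrays 5.80 to 5.95.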

How the results depend on the processing

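Of 190 values of the 10 members under alternatives, 168 kept their direction and 22 had the opposite sign. An adjusted p of 0.05 in limma was passed by 0, and the lowest was 0.622, for Tlr3 without irradiated mouse 4. Some of the 168 could not turn. Leaving out dim genes, the mean of rows, all rows, the trended robust prior and the replicate block change only the SE and p of a member. Each member had 1 probe set, and both groups held the same mouse numbers. The count of 168 therefore overstates how stable the directions were. The unadjusted p of Tlr3 was 0.111 with sham mice 2 and 3 left out together and 0.052 with the T and NK cell mean as a covariate. Tlr3, Tlr7 and Tlr9 kept their direction under every alternative that could change a difference, with values from 0.38 to 0.66, 0.20 to 0.61 and 0.21 to 0.66. With quantile normalization Tlr2 differed by 0.012 and Tlr6 by 0.0052. With array weights Tlr8 differed by -0.0099. With sham mice 2 and 3 left out together, Tlr1, Tlr8 and Tlr13 differed by -0.042, -0.0032 and -0.12. With the T and NK cell mean as a covariate, Tlr8 differed by -0.0039 and Tlr13 by -0.056, and with the macrophage maturation mean by -0.0068 and -0.0060. The cause of these turns was not tested; all lie within the members' intervals.

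With 1 array left out the ranges were -0.039 to 0.23 for Tlr1, -0.10 to 0.020 for Tlr2, -0.0085 to 0.28 for Tlr4, -0.21 to 0.12 for Tlr6, -0.071 to 0.073 for Tlr8, -0.055 to 0.26 for Tlr13 and -0.17 to 0.074 for Cd14. Members with a higher mean numbered 4 to 9, and members at an unadjusted p under 0.05 numbered 0 to 2: 0 without irradiated mouse 1 or 2, and 2 without irradiated mouse 3 or 4. Genes past the adjusted threshold numbered 0 to 1: H2ac15, a histone gene and no member, passed without irradiated mouse 1 (-1.41, adjusted p = 0.0453). At an unadjusted p under 0.05 in limma, 1347 of 22180 genes were counted in all, and 805 of 12312 with dim genes left out. Of the same 22180, 1065 were counted with the mouse number as a replicate block and 1611 with the T and NK cell mean as a covariate. The labels name no pairing by mouse number. Deviations of same-numbered mice correlated at -0.28 to -0.14 and those of differently numbered mice at -0.23 to 0.27, which does not settle whether same-numbered mice share a batch. With the replicate block Tlr7 differed by 0.42, at an unadjusted p of 0.0281 and an adjusted p of 0.957 in limma.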
